A study of Rattus norvegicus with 10 samples.

Results

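The genes described here are 39 interferon-stimulated genes, a set of antiviral and immune genes that cells switch on in answer to interferon, listed by name and read on Affymetrix rat expression arrays. Each gene was read by its brightest probe set (a group of short oligonucleotides designed for 1 transcript) among those that the platform annotation assigns to a single gene. Of the 39 listed genes, 36 had such a probe set, out of 14217 genes on the array that did. Oasl2, Gbp5 and Xaf1 were not analysed here. The samples were left ventricles of male Sprague-Dawley rats of 250-300 g, taken 3 days after transfer of the gene for GATA-4, a zinc finger transcription factor of the heart, or of LacZ, a bacterial enzyme gene that served as the control, with 5 arrays in each group. Both groups had received a gene transfer, and no ventricle without one is among the samples, so the LacZ values are not those of an untreated heart. The sources used here do not state the vehicle of the transfer or the site of injection, nor whether each sample is a separate animal, so the p-values measure the spread between these samples, which may be technical. The titles name GATA-4 on every array, and groups follow the source label.

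Type I interferons signal through a pair of receptor chains, IFNAR1 and IFNAR2, to the kinases JAK1 and TYK2. The signal reaches the nucleus in a complex that holds STAT2 and IRF9, which binds a DNA element called the interferon-stimulated response element in the promoters of many such genes. Interferon gamma acts through a receptor of its own. The products sense foreign RNA or DNA, degrade or trap viral RNA and proteins, tag proteins with the ubiquitin-like ISG15, or pass the signal on. In the heart, cardiomyocytes, endothelium, fibroblasts and resident or recruited leukocytes can all express them.

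All 36 measured members had a higher mean with GATA-4 than with LacZ, where 47.4% of all genes tested did, and 15 of the 35 tested members rose while 0 fell (limma, adjusted p under 0.05). Over all 10688 genes tested, 3.71% rose (397) and 2.66% fell (284), beside 42.9% and none of the tested members. The members were chosen with earlier results of these data known, so these shares are a description and not a test. Counted over all 18625 probe sets tested, 3.04% rose. That split of all genes moved with the scaling: centring each array on its median gave 221 that rose (2.07%) and 267 that fell, with 12 members risen, and the values as deposited gave 7 and 0, with no member risen. The rises were modest, from 1.43-fold for Dtx3l to 2.24-fold for Samhd1. The median difference over the 36 members was 0.58 on the log2 scale, where the median over all tested genes was -0.017. An unadjusted p under 0.05 was met by 28 of the 35, each of them higher with GATA-4, and by 24.2% of all genes in either direction. In whole tissue, more cells of a type and more RNA per cell cannot be told apart.

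As to the arrays themselves, the 2%-trimmed mean signal was 142 on GATA-4 array 1 and 249 to 329 on the other 9, and values are given after quantile normalization, as log2 signals, in the order of arrays 1 to 5. Gata4 itself read 11.58, 11.28, 11.36, 11.59 and 11.42 on the GATA-4 arrays and 10.49, 10.82, 10.63, 10.72 and 10.58 on the LacZ arrays. The groups lay apart, with array 1 second highest, and Gata4 rose 1.73-fold (limma adjusted p = 0.00131). Whether the probe set reads the transferred copy, the rat's own gene or both was not tested. Markers of heart muscle cells were bright on every array (summed signal 86618 to 89631 with GATA-4, 87133 to 89549 with LacZ). On every array 7 of the 8 lay among the 50 brightest probe sets, at 13.30 to 13.72 on a scale that ends at 13.97, so a difference between the groups could hardly show in them, and that none passed the test says little. Ryr2, the marker below that range, differed by -0.14 (95% interval -0.29 to 0.0019). The labels name no batch.

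**Figure D1:**
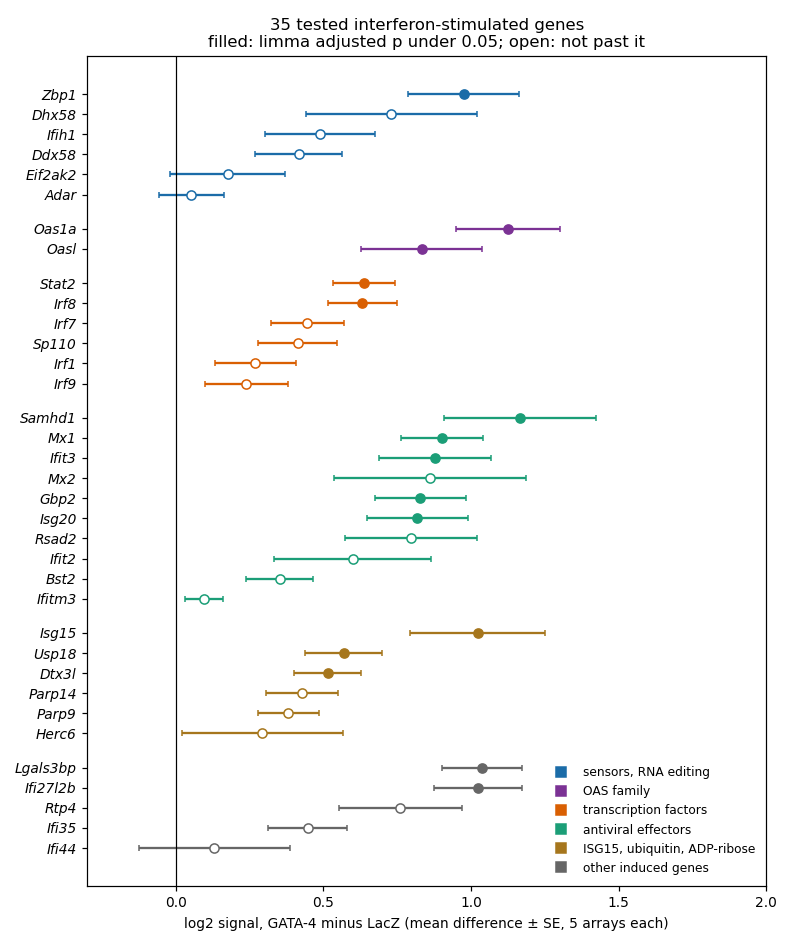
Differences in normalized log2 signal (GATA-4 minus LacZ, horizontal axis; points are mean differences, bars the limma SE, 5 arrays in each group) for the 35 tested members, grouped by role. All points lie right of 0, from 0.05 for Adar to 1.17 for Samhd1, and the 15 filled ones passed an adjusted p of 0.05.

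Promoter sequences of the members were taken from RefSeq's table (build GRCr8). It matched 25 of the 36 measured members; Ddx58, Dhx58, Zbp1, Adar, Mx2, Ifit1, Ifit2, Isg15, Usp18, Ifi27l2b and Rtp4 have no entry in it. The core of the response element (GAAA, any pair of bases, GAAA), searched on both strands from 250 bases before to 50 bases after the start of the gene, was found in 15 of the 25, 6 of the 11 that rose and 9 of the 14 others, and in 3.92% of all 33469 promoters in the table. The 3 members below have the smallest p among those with the core, and Ifi44 the largest p among tested members in the table. Each is shown to let the element be seen in its place, 5′ to 3′ as the 250 bases before the gene's start, with the core in capitals.
Lgals3bp: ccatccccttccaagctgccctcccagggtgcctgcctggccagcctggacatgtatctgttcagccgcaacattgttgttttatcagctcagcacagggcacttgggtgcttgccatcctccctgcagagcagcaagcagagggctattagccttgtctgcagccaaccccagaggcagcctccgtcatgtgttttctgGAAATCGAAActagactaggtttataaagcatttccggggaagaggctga
Oas1a: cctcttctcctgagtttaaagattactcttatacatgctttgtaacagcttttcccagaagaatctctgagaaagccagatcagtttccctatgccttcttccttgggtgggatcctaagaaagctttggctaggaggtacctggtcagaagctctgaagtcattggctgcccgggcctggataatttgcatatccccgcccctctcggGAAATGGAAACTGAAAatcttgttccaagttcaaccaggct
Gbp2: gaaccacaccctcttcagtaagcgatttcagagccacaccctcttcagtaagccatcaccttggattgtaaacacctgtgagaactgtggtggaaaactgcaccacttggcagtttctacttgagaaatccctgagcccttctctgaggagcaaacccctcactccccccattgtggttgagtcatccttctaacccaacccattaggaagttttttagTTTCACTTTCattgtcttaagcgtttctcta
Ifi44: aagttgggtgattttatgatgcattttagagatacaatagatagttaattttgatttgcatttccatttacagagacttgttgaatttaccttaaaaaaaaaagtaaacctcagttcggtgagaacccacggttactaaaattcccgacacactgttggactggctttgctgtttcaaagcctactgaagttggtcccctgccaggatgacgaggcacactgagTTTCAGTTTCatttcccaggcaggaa
These lie at chr10:104127849-104128098, minus strand (Lgals3bp), chr12:41330216-41330465, plus strand (Oas1a), chr2:234005477-234005726, plus strand (Gbp2) and chr2:243303841-243304090, minus strand (Ifi44). In Oas1a, 2 overlapping cores, GAAATGGAAA and GAAACTGAAA, begin 41 and 35 bases before the start. The core of Lgals3bp, GAAATCGAAA, begins 50 bases before it. In Gbp2 the core stands on the other strand as TTTCACTTTC, 31 bases before the start. Ifi44, which did not pass the test, holds TTTCAGTTTC 26 bases before its start and a second core after it, so the core stands in printed members that rose and in one that did not pass.

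Other motifs were looked for in the same windows. TTCNNNGAA, the core of the gamma-activated site, was in 8 of the 25 members (3 of those that rose) and in 8.87% of all promoters. The motifs of GATA factors (AGATAA or TGATAA, also with G as the last base), counted together on both strands, were in 11 of the 25 (3 of those that rose) and in 30.3% of all promoters. A match is a description of letters and not of binding. The starts of Parp9 and Dtx3l lie head to head on chromosome 11 of GRCr8, with 1213 bases between them.

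Among the sensors, 1 of 6 rose. Zbp1, which senses Z-form nucleic acids and can start cell death, read 7.55, 8.08, 8.76, 8.30 and 8.06 with GATA-4 and 7.28, 7.37, 7.05, 7.27 and 6.91 with LacZ. The groups did not overlap, and GATA-4 array 1 came nearest to the LacZ arrays. The difference was 0.98 (SE 0.19), or 1.97-fold, with a limma adjusted p of 0.0159.

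The RIG-I-like receptors, helicases that detect viral RNA in the cytoplasm, lay higher by 0.42 to 0.73 and did not pass. Dhx58 (LGP2), which tunes the signal of the other receptors, read 6.24, 7.75, 8.17, 7.83 and 7.25 with GATA-4 and 6.99, 6.83, 6.63, 6.75 and 6.39 with LacZ. By this brightest probe set, GATA-4 arrays 2 to 5 lay above every LacZ array, and GATA-4 array 1 lay below every one of them. Its difference of 0.73 (SE 0.29) had a limma adjusted p of 0.161. The dimmer Dhx58 probe sets placed array 1 otherwise, and neither passed. In the first (difference 0.61, limma adjusted p = 0.114) it read 6.51, among the LacZ values. In the other (difference 1.20, limma adjusted p = 0.153) it read 7.33, the highest GATA-4 value, and the groups did not overlap. Ddx58 (RIG-I, Rig1 in the updated gene names) differed by 0.42 (adjusted p = 0.120) and Ifih1 (MDA5) by 0.49 (adjusted p = 0.147), both again with GATA-4 array 1 among the LacZ values. Without that array all 3 rose in limma, Dhx58 by 1.04 (adjusted p = 0.00301), Ddx58 by 0.53 (adjusted p = 0.0109) and Ifih1 by 0.65 (adjusted p = 0.0109).

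Eif2ak2 (PKR), the kinase that stops translation on double-stranded RNA, and Adar, the enzyme that edits adenosine in such RNA, showed the smallest differences of the sensor group. Eif2ak2 differed by 0.18, with a 95% interval from -0.24 to 0.60. For the brightest Adar probe set the difference was 0.05. Its interval, from -0.18 to 0.29, leaves out a change of 1.5-fold in either direction. The sign turned when arrays were centred on their median, left as deposited or when GATA-4 array 4 was left out. The other probe sets of Adar differed by 0.10 (95% interval -0.31 to 0.51) and 0.35 (0.07 to 0.63), neither past the threshold. The interval of the last one holds a rise of 1.5-fold.

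Both measured members of the oligoadenylate synthetase family rose. These enzymes make the short 2′-5′ adenylates that switch on RNase L, which cuts RNA. Oasl is a related protein with a ubiquitin-like tail. Oas1a read 8.83, 9.35, 9.74, 9.05 and 9.11 on the GATA-4 arrays and 8.37, 8.16, 7.82, 8.33 and 7.77 on the LacZ arrays. Every GATA-4 array lay clear of every LacZ array. Oas1a rose 2.18-fold (log2 1.13, SE 0.18, limma adjusted p = 0.00714) and passed the threshold whichever array was left out. Rat Oas1 genes form a cluster of close copies, and whether this probe set reads only Oas1a was not tested.

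Oasl read 9.39, 9.71, 10.21, 9.82 and 9.43 with GATA-4 and 9.18, 9.00, 8.40, 9.35 and 8.47 with LacZ. The lowest GATA-4 value, on array 1, and the highest LacZ value, on array 4, nearly touched. Its 1.78-fold rise (adjusted p = 0.0360 in limma) had the largest adjusted p of the risen members, and it passed in 2 of the 10 fits with an array left out, those without GATA-4 array 1 and without LacZ array 4.

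Of the 6 transcription factors, Stat2 and Irf8 rose. Stat2, a signal carrier of the type I and III interferon receptors, read 9.91, 9.67, 10.00, 10.04 and 9.59 with GATA-4 and 9.28, 9.20, 9.06, 9.27 and 9.22 with LacZ. The groups lay apart, and GATA-4 array 1 held the middle value of its group. The difference was 0.64 (SE 0.11), 1.56-fold, adjusted p = 0.00910 in limma, and it passed in all 10 leave-one-out fits. A second, dimmer Stat2 probe set differed by 0.34 (SE 0.15, adjusted p = 0.201).

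Irf8, a factor of myeloid cells that interferon gamma also induces, stood at 9.51, 9.75, 9.81, 9.69 and 9.65 with GATA-4 and at 9.10, 9.37, 8.95, 9.08 and 8.74 with LacZ. The GATA-4 values were close together, and all lay above the highest LacZ value, that of array 2. Irf8 rose 1.55-fold (limma adjusted p = 0.0137) and passed in 9 of 10 leave-one-out fits.

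Irf7, the factor that amplifies interferon production, was bright in both groups and just missed the threshold. Its signals were 12.90, 12.60, 13.08, 12.62 and 12.52 with GATA-4 and 12.18, 12.45, 12.14, 12.64 and 12.08 with LacZ. GATA-4 array 1 was the second highest here, and LacZ array 4 reached into the GATA-4 values. The difference was 0.44 (SE 0.12, limma adjusted p = 0.0560). Irf1 and Irf9, which carry the interferon gamma and the type I signal to DNA, differed by 0.27 (95% interval -0.03 to 0.57) and 0.24 (-0.07 to 0.54). Sp110, a nuclear body protein, differed by 0.41 (adjusted p = 0.0948) by its brightest probe set, while both dimmer ones passed, with differences of 0.84 and 0.57 and limma adjusted p-values of 0.0297 and 0.0430.

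**Figure D2:**
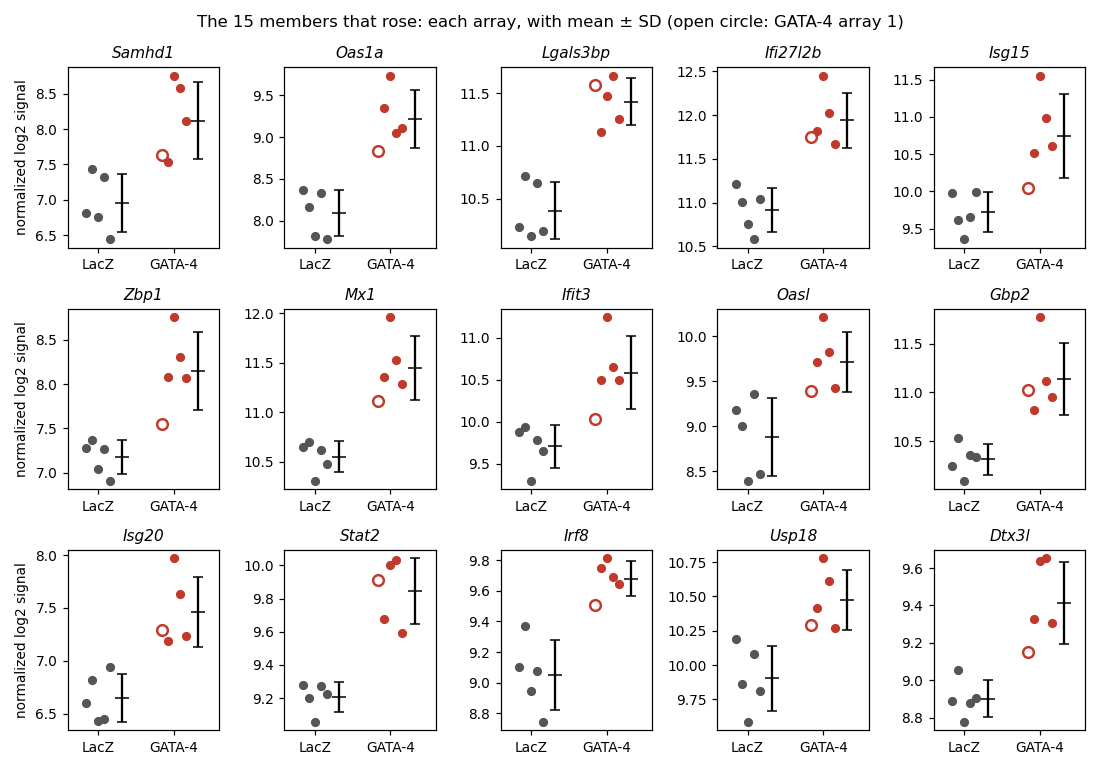
Normalized log2 signal on each array (vertical axis, own scale per gene) for the 15 members that rose, with mean ± SD of 5 arrays beside each group; the open circle is GATA-4 array 1. In each of the 15 panels all GATA-4 points lie above all LacZ points, and the gap is narrow for Oasl and Isg15.

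Of the 10 tested antiviral effectors 5 rose, and they held the widest difference. Samhd1, which strips cells of the nucleotides that viruses need to copy DNA, read 7.63, 7.53, 8.75, 8.58 and 8.12 with GATA-4 and 6.82, 7.44, 6.76, 7.32 and 6.44 with LacZ. The spread was wide in both groups, with GATA-4 arrays 1 and 2 close to LacZ arrays 2 and 4. The rise of 1.17 (SE 0.26), or 2.24-fold, had an adjusted p of 0.0248 in limma and passed in 4 of 10 leave-one-out fits.

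Mx1, a dynamin-like GTPase that blocks viral nucleoproteins, stood at 11.11, 11.35, 11.96, 11.53 and 11.29 on GATA-4 arrays and 10.64, 10.69, 10.31, 10.62 and 10.48 on LacZ arrays. Array 3 was highest with GATA-4 and lowest with LacZ, and the groups lay apart. Mx1 rose 1.87-fold (log2 0.90, SE 0.14, limma adjusted p = 0.00680), in all 10 leave-one-out fits. Its relative Mx2 had a difference of like size, 0.86, and read 10.04, 10.17, 11.79, 11.27 and 11.19 with GATA-4 and 9.70, 10.66, 10.05, 10.38 and 9.37 with LacZ. GATA-4 arrays 1 and 2 lay among the LacZ values and arrays 3 to 5 above them, and Mx2 did not pass (SE 0.33, adjusted p = 0.144); the difference between Mx1 and Mx2 was not tested.

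The IFIT proteins, which bind viral RNA without the host's cap marks, were read in 3 members. Ifit3 read 10.03, 10.50, 11.25, 10.65 and 10.50 with GATA-4 and 9.87, 9.94, 9.30, 9.78 and 9.65 with LacZ, with array 1 again next to the LacZ values. It rose 1.84-fold (adjusted p = 0.0238 in limma). Ifit2 gave different calls by its 2 probe sets. The brighter one read 9.87, 10.99, 11.66, 11.40 and 10.90 with GATA-4 and 10.62, 10.69, 10.04, 10.27 and 10.21 with LacZ, where array 1 lay below all LacZ arrays, and its difference of 0.60 did not pass (adjusted p = 0.210). The dimmer one rose by 0.83 (SE 0.16, limma adjusted p = 0.0158), with no overlap between the groups. Ifit1 was too dim to be tested, at 4.73 ± 0.79 against 4.22 ± 0.67 (log2 signal, mean ± SD, n = 5), a difference of 0.51 with an exact two-sided permutation p of 0.254.

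Gbp2, a guanylate-binding protein that interferon gamma induces strongly, and Isg20, an exonuclease that degrades RNA, also rose. For Gbp2 the signals were 11.03, 10.82, 11.78, 11.12 and 10.96 with GATA-4 and 10.25, 10.53, 10.09, 10.35 and 10.34 with LacZ. The groups lay apart, with array 3 at the top of the GATA-4 values, and Gbp2 passed without that array too. The difference was 0.83 (SE 0.15, 1.78-fold, adjusted p = 0.0137 in limma). Isg20 read 7.30, 7.19, 7.97, 7.63 and 7.23 with GATA-4 and 6.60, 6.81, 6.43, 6.45 and 6.94 with LacZ. The groups lay apart, nearest at GATA-4 array 2 and LacZ array 5, and Isg20 rose 1.76-fold (limma adjusted p = 0.0208).

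Rsad2 (viperin), which makes a chain-terminating nucleotide, had a difference of 0.80 (SE 0.22, limma adjusted p = 0.0576). Its signals were 9.59, 10.33, 11.04, 10.49 and 9.96 with GATA-4 and 9.83, 9.70, 9.26, 9.32 and 9.31 with LacZ. Arrays 2 to 5 lay above all LacZ arrays and array 1 among them. Bst2 (tetherin), which holds budding virus at the cell surface, differed by 0.35 (adjusted p = 0.0877). Ifitm3, which stops viral fusion in endosomes, had the smallest difference among the effectors, 0.09, with a 95% interval from -0.05 to 0.24, so a 1.5-fold change lies outside it; its sign turned when arrays were centred on their median or left as deposited.

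Of the 6 genes of protein tagging, Isg15, Usp18 and Dtx3l rose. Isg15, the ubiquitin-like protein itself, read 10.04, 10.52, 11.55, 10.99 and 10.61 with GATA-4 and 9.98, 9.61, 9.36, 9.66 and 9.99 with LacZ. Array 1 lay only just above LacZ arrays 1 and 5, and array 3 lay far above them. The rise was 2.03-fold (log2 1.02, SE 0.23, limma adjusted p = 0.0258). Usp18, which removes ISG15 and also restrains the type I receptor, read 10.30, 10.41, 10.78, 10.61 and 10.27 against 10.19, 9.86, 9.59, 10.08 and 9.81 with LacZ. GATA-4 arrays 1 and 5 lay just above the highest LacZ value, that of array 1, and Usp18 rose 1.48-fold (adjusted p = 0.0274).

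The ubiquitin ligase Dtx3l and its partner Parp9, an ADP-ribosyltransferase family protein, come from the head-to-head genes described above. Dtx3l stood at 9.15, 9.33, 9.64, 9.65 and 9.30 with GATA-4 and 8.89, 9.06, 8.78, 8.88 and 8.90 with LacZ. GATA-4 array 1 was again the lowest of its group but above every LacZ array, and Dtx3l rose 1.43-fold (log2 0.51, SE 0.11, limma adjusted p = 0.0255). Parp9 read 9.54, 9.87, 10.04, 9.84 and 9.66 with GATA-4 and 9.56, 9.44, 9.32, 9.39 and 9.34 with LacZ. Only array 1 reached the LacZ values, and the difference of 0.38 (SE 0.10) had an adjusted p of 0.0529. Parp14, a larger protein of the same family, read 8.96, 9.09, 9.42, 9.26 and 9.10 with GATA-4 and 8.96, 8.91, 8.47, 8.75 and 8.61 with LacZ. The groups met without overlap at GATA-4 array 1 and LacZ array 1. This brightest probe set missed the threshold (difference 0.43, limma adjusted p = 0.0629), while its dimmer one passed (difference 0.62, adjusted p = 0.0452 in limma). Herc6, the rodent ligase for ISG15, differed by 0.29 with a 95% interval from -0.30 to 0.88; GATA-4 array 1, at 6.67, was its lowest value.

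Lgals3bp and Ifi27l2b, among the remaining genes, had the smallest adjusted p-values of all members. Lgals3bp, a secreted glycoprotein that binds galectins, read 11.57, 11.13, 11.48, 11.67 and 11.26 with GATA-4 and 10.23, 10.71, 10.15, 10.65 and 10.19 with LacZ. Here array 1 was the second highest GATA-4 value, and the groups lay apart. The rise was 2.05-fold (log2 1.04, SE 0.14, limma adjusted p = 0.00418). Ifi27l2b, a small mitochondrial membrane protein of the ISG12 family, stood at 11.75, 11.82, 12.45, 12.02 and 11.66 with GATA-4 and 11.22, 11.00, 10.76, 10.58 and 11.04 with LacZ. The groups again lay apart, and it rose 2.03-fold (adjusted p = 0.00644).

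Rtp4, a receptor chaperone, read 9.02, 9.90, 10.39, 9.67 and 9.64 with GATA-4 and 9.30, 8.92, 8.68, 8.79 and 9.12 with LacZ, with array 1 among the LacZ values, and narrowly missed the threshold (difference 0.76, SE 0.21, limma adjusted p = 0.0523). Ifi35 did not overlap between groups and had a difference of 0.45 (adjusted p = 0.0713). Ifi44 differed least of this group, by 0.13 (95% interval -0.42 to 0.68), and its sign turned when GATA-4 array 3 was left out.

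Groups did not overlap in 17 of the 35 tested members, the 15 that rose together with Parp14 and Ifi35, where all GATA-4 arrays lay above all LacZ arrays in 4.56% of genes. Groups of 5 and 5 arrays without overlap always have an exact two-sided permutation p of 0.00794, the smallest that 252 splits can give. That test therefore adds nothing for these 17. All 35 tested members would have passed the filter on signal by their LacZ mean alone, so none was tested only through a high GATA-4 group.

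**Figure D3:**
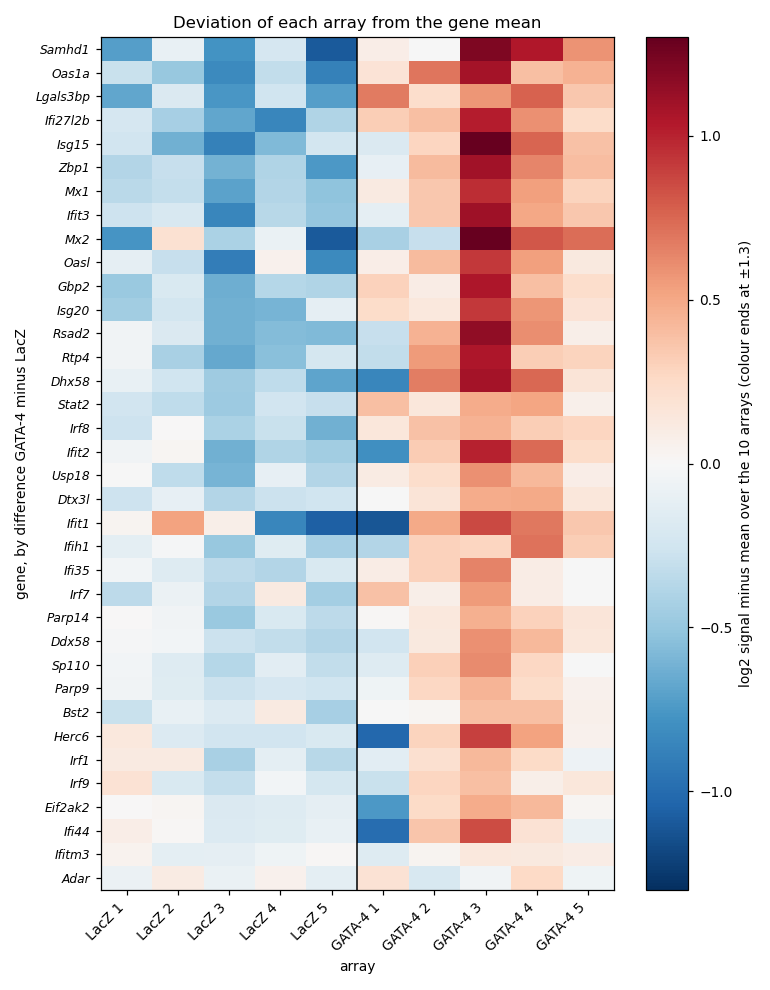
Each array's log2 signal minus the gene's mean over the 10 arrays (colour, red above and blue below) for the 36 measured members, ordered by difference, with LacZ arrays left of the line. GATA-4 array 3 is the highest GATA-4 array in 30 of the 36 rows, and GATA-4 array 1 the lowest in 26.

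Members followed the arrays together within each group. GATA-4 array 3 was the highest of its group in 30 of the 36 members and array 4 in the other 6. How often these arrays were highest over all genes was not counted here. GATA-4 array 1 was the lowest in 26, where it was lowest in 35.5% of all genes, and it lay above every LacZ array in 19 members. Averaged over the members, its deviation from the gene means was -0.14, next to the -0.18 to -0.15 of LacZ arrays 1 and 2, where LacZ arrays 3, 4 and 5 stood at -0.48, -0.27 and -0.44 and GATA-4 arrays 2 to 5 at 0.26, 0.74, 0.47 and 0.19. In Adar, Irf7 and Lgals3bp it was the second highest GATA-4 array. GATA-4 arrays 2 to 5 lay above every LacZ array in 26 of the 36 members, where they did in 9.71% of genes.

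The number of members that passed depended on single arrays. Without GATA-4 array 1, 30 of 35 rose, the same 15 and 15 more, where 9.95% of all genes rose. Adar, Irf1, Irf9, Ifitm3 and Ifi44 did not pass even then. Array 1 lay no higher than the highest LacZ array in 17 members, so the count of 30 is no stronger evidence than the 15. The cause of the higher count was not tested. Without GATA-4 array 4 the count was 9, and without LacZ array 3, the lowest LacZ array in 22 members, it was 5. Oas1a, Stat2, Mx1, Ifi27l2b and Lgals3bp passed in all 10 such fits, and these same 5 remained without GATA-4 arrays 4 and 5. The record numbers of those arrays in the deposit do not follow on from the run of all the others. What this break stands for is not given in the labels. Zbp1, Irf8 and Gbp2 lost the call only without LacZ array 3. Ifit3 lost it without GATA-4 array 4 or LacZ array 3, 4 or 5, Isg20 without LacZ array 1, 3 or 4, and Isg15 without GATA-4 array 4 or LacZ array 2, 3 or 4. Usp18 lost it without GATA-4 array 3 or 4 or LacZ array 2, 3 or 5. Samhd1 kept it without GATA-4 array 1 or 2 or LacZ array 2 or 4, and Dtx3l without GATA-4 array 1, 2 or 5 or LacZ array 2. Irf7 gained it without GATA-4 array 1 or LacZ array 4.

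**Figure D4:**
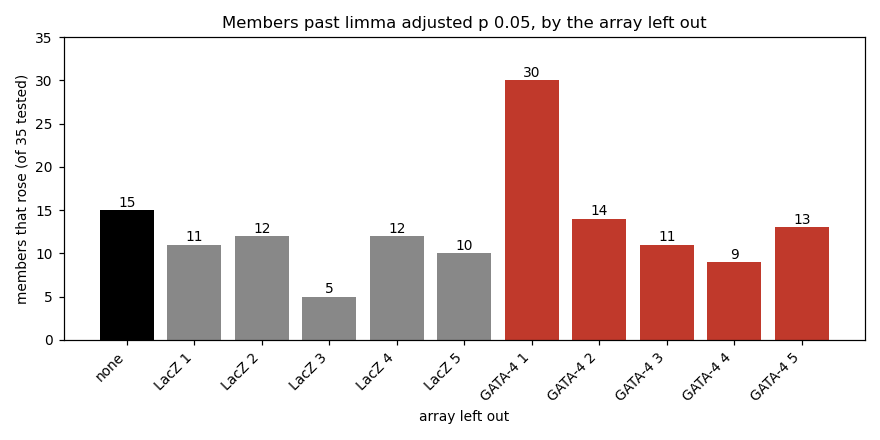
Number of the 35 tested members that rose (vertical axis, limma adjusted p under 0.05) with no array left out (black) and with each LacZ (grey) or GATA-4 (red) array left out in turn. The count is 15 with all arrays, 30 without GATA-4 array 1 and 5 without LacZ array 3.

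The machinery around the members was read from a list of 80 further pathway genes, of which 58 were tested. Of these, 14 rose and 0 fell, where 3.71% of all genes tested rose and 2.66% fell. The list was chosen with earlier results of these data known, so its share is a description and not a test. None of the 6 tested receptor chains passed. Ifnar1 differed by 0.08 (95% interval -0.16 to 0.33), Ifnar2 by -0.02 (-0.25 to 0.21), Ifngr1 by 0.11 (-0.05 to 0.26) and Ifngr2 by 0.19 (-0.01 to 0.39). Transcripts of the interferons Ifnb1, Ifng and Ifnk were too dim to be tested in the fit. Ifna1, also on the list, had no single-gene probe set and was not read. Ifnb1 read 1.37 ± 0.91 against 0.50 ± 0.42, Ifng 3.88 ± 0.79 against 2.49 ± 1.78 and Ifnk 2.37 ± 1.03 against 1.34 ± 0.99 in log2 signal (mean ± SD, n = 5, GATA-4 against LacZ), with exact two-sided permutation p-values of 0.103, 0.167 and 0.159.

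Of the kinases, Jak2, which serves the interferon gamma receptor among others, read 7.41, 7.80, 7.83, 7.88 and 7.61 with GATA-4 and 6.99, 7.25, 6.88, 6.65 and 7.39 with LacZ. The groups met without overlap at GATA-4 array 1 and LacZ array 5, and Jak2 rose 1.59-fold (limma adjusted p = 0.0270). Jak1 and Tyk2, the pair of the type I receptor, differed by 0.22 and 0.01 and did not pass. Among other factors Irf5, of macrophages, rose by 0.58 on the log2 scale (adjusted p = 0.0202), while Irf3, which starts interferon production, differed by -0.01 (95% interval -0.23 to 0.22). The RNA receptor Tlr8 rose 1.66-fold (adjusted p = 0.0244), 1 of the 2 that rose among 11 tested genes of nucleic acid sensing. The brake Socs3 differed by 0.29 (SE 0.26) and did not pass, and Socs1 was too dim to be tested.

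Further interferon-responsive genes outside the members rose in 10 of 29 tested, where 3.71% of all genes tested rose. Cxcl10, a chemokine that draws T cells, read 10.01, 10.06, 10.87, 10.53 and 10.04 with GATA-4 and 9.59, 9.58, 8.26, 8.95 and 9.11 with LacZ. The groups lay apart, and it rose 2.30-fold (SE of the log2 difference 0.24, limma adjusted p = 0.0197). Ifi30, a lysosomal thiol reductase of antigen processing, rose 1.42-fold with a narrow spread (11.30 ± 0.12 against 10.79 ± 0.06, mean ± SD, n = 5; adjusted p = 0.00597 in limma). The immunoproteasome subunits Psmb8 and Psmb9 rose 1.58-fold and 1.53-fold, the peptide transporter Tap1 1.47-fold, the inflammatory caspase Casp4 1.63-fold, the ISG15-conjugating enzyme Ube2l6 1.61-fold, and the membrane proteins Ly6e and Shisa5 1.33-fold and 1.34-fold, with adjusted p-values of 0.0148, 0.0248, 0.0265, 0.0285, 0.0369, 0.0188 and 0.0202 in limma. Without GATA-4 array 1, 28 of the 58 tested pathway genes passed, where 9.95% of all genes rose.

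**Figure D5:**
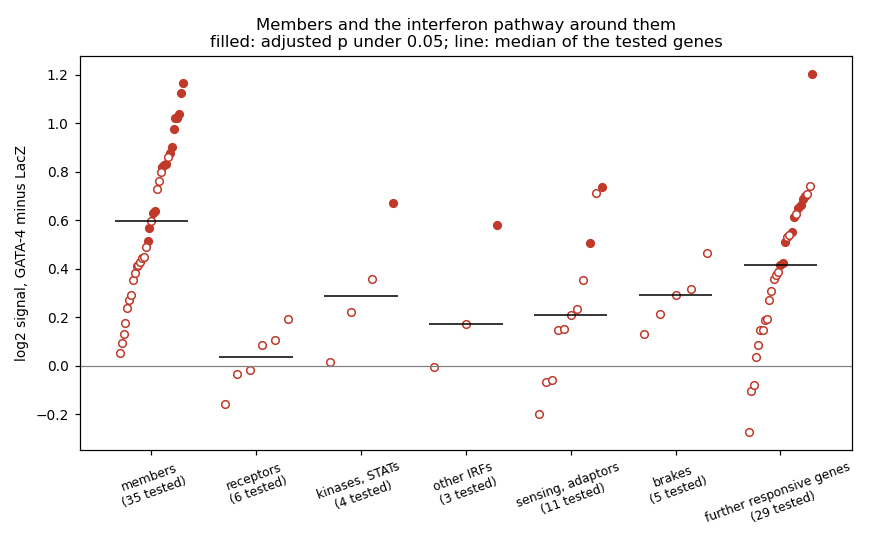
Difference in normalized log2 signal (GATA-4 minus LacZ, vertical axis) of each tested member and of each tested gene in 6 groups of the surrounding pathway, with filled points past an adjusted p of 0.05 and lines at group medians; the spread along the horizontal axis only separates points. The receptor chains lie from -0.16 to 0.19 with none filled, and Cxcl10, at 1.20, is the highest point.

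Part of the markers of macrophages, neutrophils and leukocytes at large rose with GATA-4. Whether they varied with the members from array to array was not tested. The marker lists were chosen with earlier results of these data known. Over all genes tested, 3.71% rose. Pan-leukocyte markers rose in 2 of 4 tested (summed signal 3419 to 6488 with GATA-4, 3297 to 3976 with LacZ, in linear units after normalization). Of 12 macrophage and monocyte markers 8 rose, Tyrobp (2.36-fold), Cd68 (1.61-fold) and Csf1r (1.45-fold) among them, and their summed signal ran from 22690 to 26893 with GATA-4 and from 16128 to 18970 with LacZ, with none of the 12 at the floor of the scale on any array. Neutrophil markers rose in 2 of 4 tested (summed signal 262 to 2412 with GATA-4, 244 to 972 with LacZ), and T and NK cell markers in 0 of 9 (1163 to 2094 against 1087 to 1410). B cell markers passed in 0 of 1 tested (69.1 to 153 against 111 to 191) and dendritic cell markers in 0 of 2 (447 to 599 against 284 to 493). None passed among 6 endothelial markers (5343 to 6848 against 6387 to 7111), 7 fibroblast markers (35618 to 42666 against 35975 to 40199) and 6 of smooth muscle or pericytes (3224 to 4981 against 3070 to 3741). On GATA-4 array 1 the leukocyte markers differed from each other. Ptprc (7.97) and Cd53 (10.29) lay below every LacZ array there, while Coro1a (10.14) and Laptm5 (9.61) lay above every one. Of the macrophage markers, Cd68 (11.12) and Tyrobp (10.81) were the highest of the GATA-4 group on array 1. Adgre1 (8.35) and Cd163 (5.82) were the lowest of that group on array 1. As a mean log2 deviation from the gene means, pan-leukocyte markers stood at -0.42 on array 1. GATA-4 arrays 2 to 5 stood at 0.23 to 0.58 and the LacZ arrays at -0.38 to -0.07. Macrophage markers stood at 0.06 on array 1, the lowest of their group (0.28 to 0.39 on arrays 2 to 5) and above the LacZ arrays (-0.46 to -0.13). Neutrophil markers stood at -1.07 (0.31 to 1.5 on arrays 2 to 5, -1.37 to 0.28 with LacZ) and T and NK cell markers at -0.29 (0.07 to 0.42 and -0.33 to 0.22). The part of these cells in the members' differences was not tested.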

How the data were processed

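RNA of 10 left ventricular samples was hybridized, 1 array each, and the authors deposited probe set intensities on a linear scale, made with GCOS (Affymetrix array software) per the submitters' processing notes. Its version and scaling were not given in the sources used here. Groups follow each sample's source label. Gene names are those of the platform annotation, brought up to date through gene IDs in RefSeq (GRCr8), where 20758 of 20826 single-gene probe sets matched. Log2 values of the 31042 probe sets that are not controls were quantile normalized, floored at 0 and filtered at the 40th percentile of mean signal (log2 5.17), which left 18625. The limma fit (version 3.58.1, R 4.3.3; intensity trend, no covariates) was two-sided, with Benjamini-Hochberg adjustment over all 18625 and a threshold of 0.05; all adjusted p-values and intervals of single genes come from this fit. The fit was tested on simulated data. Members, lists and the naming rule (all members by role; of the pathway list the receptors, kinases, Irf3, Socs genes and up to 12 passing genes by p) were chosen with earlier results of these data known. Rose and fell are kept for genes past the threshold. Alternatives were other scalings, added constant, floor, filters, variance models (array weights with statmod 1.5.0), probe set rules and arrays left out. The arrays' number limits precision.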

Additional observations from a re-analysis of the deposited data

Results flagged for a closer look

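A sample far from the rest of its group, by the gap to its neighbour over the group's range, was met in 2 of 72 groups of 5 arrays looked at over the 36 members; chance gives about 1 in 20. For Ifit1, GATA-4 array 1 read 3.37 where the other 4 read 4.83 to 5.33 (gap over range 0.744). For Herc6, LacZ array 1 read 7.83 where the other 4 LacZ arrays read 7.45 to 7.52 (gap over range 0.810). Ifit1 was too dim to be tested, and Herc6 did not pass limma's threshold with all arrays.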

How the results depend on the processing

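The count of risen members was 15 and lay between 12 and 21, with 0 fallen, when 16 was added to every signal, under centring on the median, another floor, no or a stricter filter, no intensity trend, robust limma or the mean of a gene's probe sets. It was 28 with array weights, 5 without GATA-4 arrays 4 and 5 (fewer arrays), 5 to 30 with single arrays left out (30 without GATA-4 array 1, 9 without GATA-4 array 4, 5 without LacZ array 3), and 0 in the values as deposited, where 13 had an unadjusted p under 0.05 in limma, 34 of 36 lay higher and the smallest adjusted p was 0.477. Over all probe sets 988 changed, and 2890 with array weights, 619 without the filter, 539 without the trend, 201 without GATA-4 arrays 4 and 5, 9 as deposited and 174 to 2849 with single arrays left out (174 without LacZ array 3, 323 without 5, 384 without 1, 391 without 4; 341 without GATA-4 array 3, 539 without 5, 558 without 4, 2849 without 1). The 988 were 566 higher (3.04% of 18625) and 422 lower, and under centring on the median the members' median difference was 0.48. Signs turned for Adar (-0.0039 centred on the median, -0.0015 as deposited, -0.0054 to 0.11 with single arrays left out, lowest without GATA-4 array 4), Ifitm3 (-0.027 and -0.025 in the first 2 of these) and Ifi44 (-0.066 to 0.39 with single arrays left out, lowest without GATA-4 array 3). The cause was not tested. No paired analysis was possible because the labels give the groups no shared replicate numbers. The quality of detection per probe set was not analysed here, so dim values such as those of Ifit1 have no detection call.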

Other observations

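Members varied more among arrays of 1 group than genes at large. The median SD of the log2 signal over the 5 LacZ arrays was 0.207 for the 35 tested members and 0.145 for all 10688 tested genes. Over the GATA-4 arrays it was 0.324 and 0.248, and over GATA-4 arrays 2 to 5 it was 0.287 and 0.171. Within the LacZ group, array 3 was the lowest in 22 of 36 members and array 5 in 11, while array 1 was the highest in 17 and array 2 in 14. The ranks of the LacZ arrays over all genes were not counted here. These values are descriptions of the arrays, and no test was made of them.

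Of the 8 members with more than 1 single-gene probe set, 11 further probe sets were read. All 11 lay higher with GATA-4 and 4 passed limma's threshold, those of Sp110 (2), Ifit2 and Parp14. By any probe set, 18 members had at least 1 past the threshold, 3 of them by a dimmer one only.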
